A study of Homo sapiens with 16 samples.

Results

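Guanylate-binding proteins (GBP), interferon regulatory factors (IRF) and signal transducers and activators of transcription (STAT) were followed in MCF10HER2 cells while HER2 was inhibited. The genes are GBP1, GBP2, GBP3, IRF1, IRF2, IRF3, IRF7 and STAT3, which are 8 of the 23 GBP, IRF and STAT genes with a probe on the array and belong to a table of 20589 probes with 18190 gene symbols. They were selected on results of these same arrays, on which GBP2 climbed while common interferon genes were seen to stay flat, so the time courses of the 8 genes are given as a description and carry no test. Each gene was read from the probe whose symbol in the deposited table equals its name, and where several probes of a gene were detected the one with the highest mean signal was taken.

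MCF10HER2 is a human breast epithelial line, made by stable transduction of the nontransformed line MCF10A with the HER2 oncogene. All cultures grew in serum-free, insulin-free medium that held epidermal growth factor and hydrocortisone. CP724,714, an inhibitor of the HER2 kinase, was given at 1 µM with fresh medium, and RNA of parallel cultures was taken every 3 h from 0 to 45 h. Each of the 16 times has 1 array, only the culture of 0 h had no inhibitor, and later untreated cultures were not analysed here, so inhibitor, time in culture and renewal of the medium cannot be told apart. The RNA came from whole cultures, in which fewer cells of a kind and less RNA per cell cannot be told apart.

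Interferons act through paired receptors whose JAK kinases phosphorylate STAT proteins, and the STATs then enter the nucleus and switch on target genes. Type I interferons work mainly through a complex that holds STAT2 and IRF9, and interferon gamma also raises IRF1, itself a transcription factor for a further set of targets. The GBPs are large GTPases that attack the membranes of intracellular microbes and are among the classic targets of interferon gamma, while STAT3 carries the signals of the interleukin-6 family in epithelial cells.

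Values are normalized signals on a log2 scale unless an intensity is named. Background lay at 7.88 on this scale, and the dimmest detected probe of an array, with a detection p under 0.05, lay between 7.93 and 7.94. Between 10363 and 11436 probes were detected on an array, and 12321 probes were detected on 3 or more arrays and tested. The arrays from 0 to 21 h had a background intensity of 135.9 to 148.9 and those from 24 to 45 h one of 164.5 to 173.9, and the arrays at 9 h and 18 h were dim, with an upper quartile intensity of 397 and 418 against 553 to 804 on the others. Of 10 breast epithelial markers 6, among them KRT5, KRT17 and EPCAM, were detected on all arrays, KRT14 was detected on 1 and ITGA6 on none. The summed intensity of the epithelial list lay between 51371 at 9 h and 120600 at 45 h, that of 7 leukocyte markers between 1207 and 1770, that of 5 fibroblast markers between 819 and 1305, and that of 5 endothelial markers between 881 and 1306. HLA-DRA of the leukocyte list, COL1A1, COL1A2 and LUM of the fibroblast list, and CDH5 and VWF of the endothelial list were detected on no array. Each of these lists also held 1 marker that was detected on all 16 arrays, and 3 leukocyte, 1 fibroblast and 3 endothelial markers were tested. In a straight-line fit 1 leukocyte marker, 1 fibroblast marker and 0 endothelial markers passed as rising, against 12.9% of all tested probes.

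GBP2 gave by far the largest change of the 8 genes. Its probe (ILMN_13936) was detected on all 16 arrays, with a signal of 8.17 before treatment and of 8.75, 9.21 and 9.72 after 3, 6 and 9 h. The signal was then 9.63, 9.59, 10.22 and 10.35 at 12, 15, 18 and 21 h, and 10.08, 10.01, 9.96 and 10.29 at 24, 27, 30 and 33 h. It ended at 10.73, 10.98, 10.88 and 10.97 at 36, 39, 42 and 45 h. All 15 treated arrays lay above the untreated one, and the 4 arrays from 36 to 45 h lay above all the others.

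The climb of GBP2 was not even. The level was 2.06-fold that of the untreated array at 6 h, and by 9 h 55.2% of the log2 difference between 45 h and 0 h had been reached. From 9 to 15 h the signal changed by −0.09 and −0.04 per step, and the next step, to 18 h, added 0.64, the largest of the series. After a drop of −0.27 between 21 and 24 h, which is also where the background of the arrays changes, the signal stayed nearly level to 30 h, and 3 steps of 0.34, 0.44 and 0.25 took it to its highest value at 39 h. The final level was 6.99-fold that at 0 h.

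A straight line through the 16 arrays gave GBP2 a change of 2.29 ± 0.24 (SE) over 45 h, the rank 6 among the 12321 tested probes when ordered from the largest rise. Within the arrays from 0 to 21 h the change was 1.98 ± 0.26 over these 21 h, and within those from 24 to 45 h it was 1.18 ± 0.17, so the climb was present in both sets of arrays. In the deposited intensities the probe read 318 at 0 h and 2669.6 at 45 h. The dim arrays at 9 h and 18 h read 688 and 956, below the 819 and 1045 of the arrays just before them, and the rises into these times appear only after normalization. Quantile normalization and 3 forms of median scaling put the change between 2.29 and 2.63.

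**Figure D1:**
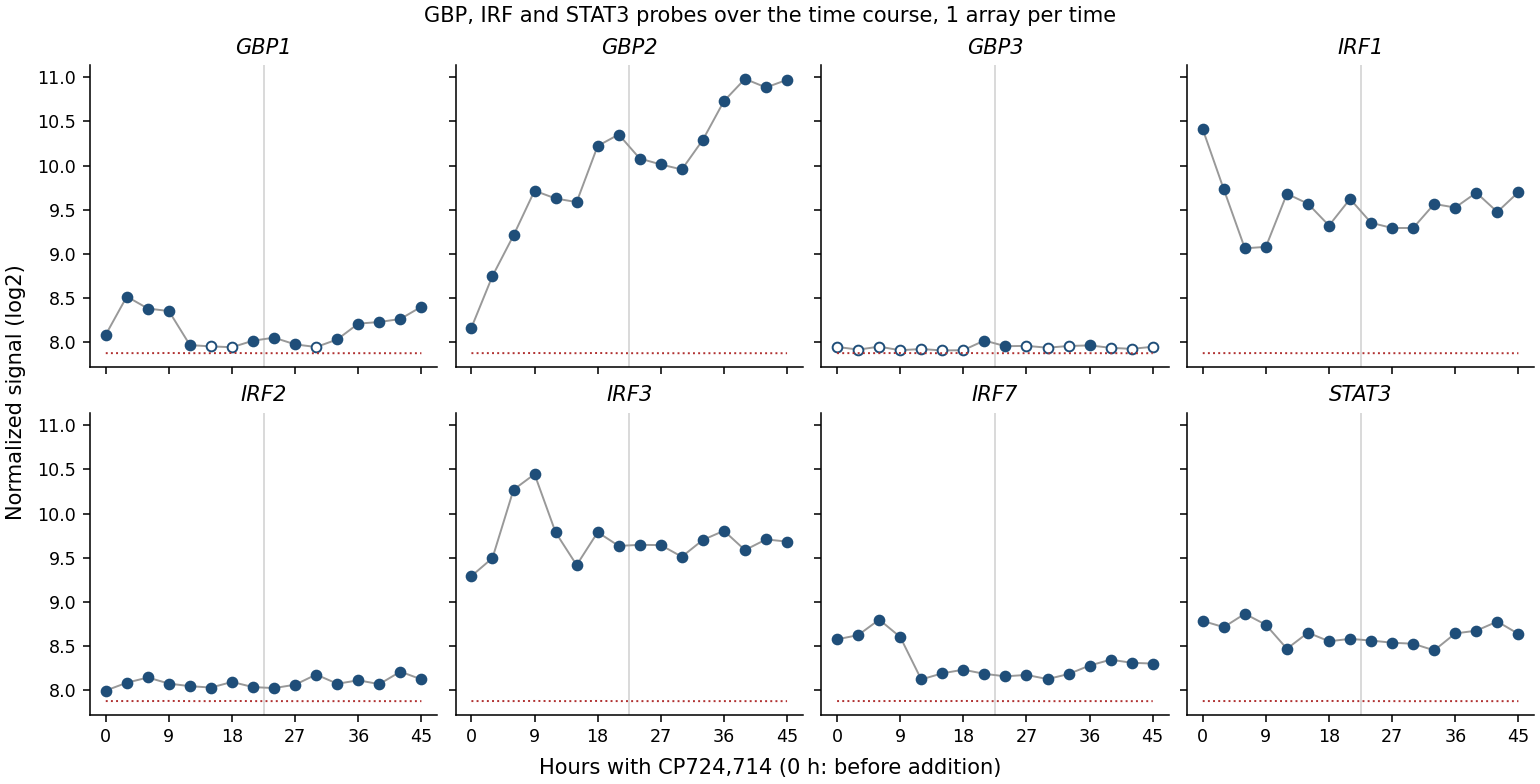
Normalized log2 signal of the 8 genes against hours with CP724,714, with 1 array per time. Filled points were detected, open points were not, the dotted line is the background at 7.88, and the grey line parts the arrays up to 21 h from those of higher background. GBP2 climbs from 8.17 to 10.97, IRF1 starts at its highest value of 10.41, IRF3 peaks at 10.45, and the other 5 genes stay between 7.91 and 8.87.

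GBP1, the best known interferon-induced member of the family, followed another course. Its probe (ILMN_28413) was detected on 13 arrays, with 8.09, 8.52, 8.38 and 8.35 from 0 to 9 h. It was then close to background, at 7.97, 7.95, 7.95 and 8.02 from 12 to 21 h, where the arrays at 15 h and 18 h did not detect it. It remained at 8.05, 7.98, 7.95 and 8.03 from 24 to 33 h and reached 8.21, 8.23, 8.26 and 8.40 from 36 to 45 h. The 4 latest arrays lay above all arrays from 12 to 33 h, without overlap, and the highest value of the course came 3 h after the inhibitor was added. A straight line over all arrays gave −0.02 ± 0.14, made of −0.42 ± 0.16 over the arrays up to 21 h and 0.41 ± 0.06 over the later ones.

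The rest of the family was near or below detection. GBP3 (ILMN_3653) was detected on 3 arrays, with 8.02, 7.96 and 7.97 at 21, 24 and 36 h, and lay between 7.91 and 8.02 throughout. GBP4, GBP5, GBP6 and GBP7 were detected on no array, with signals from 7.83 for GBP5 to 7.95 for GBP4. Of the family, GBP2 was therefore the sole gene that stood clear of background at every time. These genes are close relatives, and hybridisation of 1 transcript to the probe of another was not tested.

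The upstream sequences of GBP1 and IRF1 are shown because both genes are textbook targets of interferon gamma, and the stretch from GBP3 because it repeats part of the GBP1 sequence beside a gene that was barely detected. RefSeq windows (GRCh38.p14), which run from 250 bases before to 50 bases after each gene's start, were given for 4 of the 8 genes, namely GBP1, GBP3, IRF1 and STAT3. They were searched on both strands for the gamma-activated site motif TTCNNNGAA, which STAT proteins bind, held by 7.66% of the 35116 windows, and for the IRF motif GAAANNGAA, held by 8.11%. Capitals mark the matches, and the sequences run 5′ to 3′ along the gene, which lies on the minus strand in each case. The IRF1 window holds a gamma-activated site match 124 bases before the start, and the GBP1 window holds an IRF match, on the opposite strand, 126 bases before the start and a further one 37 bases after it. A run of 19 bases around the first of these is shared with GBP3, where it begins 5 bases before the start and 10 bases after a gamma-activated site match begins. STAT3 holds neither motif in its window. The matches are a description of these letters, and binding was not measured.
GBP1 upstream, chr1:89065209-89065458: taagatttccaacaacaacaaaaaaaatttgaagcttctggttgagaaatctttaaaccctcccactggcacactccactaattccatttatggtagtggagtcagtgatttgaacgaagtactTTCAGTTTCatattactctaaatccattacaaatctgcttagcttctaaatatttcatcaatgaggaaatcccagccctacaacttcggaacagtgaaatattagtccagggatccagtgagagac
IRF1 upstream, chr5:132490774-132491023: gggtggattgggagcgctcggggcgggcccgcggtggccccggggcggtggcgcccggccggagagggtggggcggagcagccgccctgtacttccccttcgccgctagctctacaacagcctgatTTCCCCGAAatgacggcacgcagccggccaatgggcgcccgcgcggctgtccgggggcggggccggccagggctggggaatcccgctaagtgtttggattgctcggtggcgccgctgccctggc
GBP3, chr1:89022853-89022871: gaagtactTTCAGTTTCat

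IRF1, the tumour suppressor and transcription factor that interferon gamma induces, was highest before treatment. Its probe (ILMN_11739) read 10.41 before treatment and 9.73, 9.06 and 9.08 after 3, 6 and 9 h, so that the lowest array was 2.54-fold below the untreated one. It then read 9.68, 9.57, 9.32 and 9.62 from 12 to 21 h, 9.35, 9.29, 9.29 and 9.57 from 24 to 33 h, and 9.53, 9.69, 9.48 and 9.70 from 36 to 45 h. All 15 treated arrays lay below the untreated one. The drop to 9.06 and 9.08 came in the same 9 h in which GBP2 made its first climb, and from 12 h on the signal stayed within 9.29 to 9.70. A straight line describes such a course poorly and gave −0.12 ± 0.25.

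IRF2, which binds the same sites as IRF1 and often opposes it, stayed dim. Its probe (ILMN_20338) was detected on all arrays, with its lowest value at 0 h, a median of 8.07 and a highest value of 8.21 at 42 h. All treated arrays lay above the untreated one, by at most 1.16-fold. This fold depends on the background correction. A straight line gave 0.09 ± 0.04 over 45 h with it and 0.25 ± 0.12 without it.

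IRF3, which sits inactive in the cytoplasm until sensors of foreign nucleic acid activate it, had a single early peak in the normalized signal. Its probe (ILMN_20576) read 9.29 before treatment and 9.50, 10.27 and 10.45 after 3, 6 and 9 h, the last of which is 2.22-fold the untreated level. By 12 h it was back at 9.79, and from 12 to 45 h it lay between 9.42 and 9.80. The peak falls partly on the dim array of 9 h, but the array at 6 h also had the highest deposited intensity of the gene, 1471 against 922 at 0 h. The deposited intensity was 994 at 9 h, and 1372 and 1403 at 24 h and 33 h, where background is higher. A single early peak over the whole course is thus seen only after normalization.

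IRF7, the master regulator of type I interferon production and itself an interferon target, moved the other way after 9 h. Its brighter probe (ILMN_4115) read 8.58, 8.62, 8.80 and 8.60 from 0 to 9 h. The signal was 8.12, 8.19, 8.23 and 8.19 from 12 to 21 h, stayed at 8.13 to 8.18 from 24 to 33 h and was 8.28, 8.35, 8.31 and 8.30 from 36 to 45 h. The first 4 arrays lay above all the later ones, and the last 4 above all those from 12 to 33 h. A straight line gave −0.36 ± 0.13, while a second, dimmer probe of the gene (ILMN_5194, from 7.96 to 8.11) gave 0.04 ± 0.03. Between 9 and 12 h this probe went only from 8.05 to 7.98, but it lies close to background, where folds are shrunk.

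STAT3 changed little. Its probe (ILMN_29673) lay between 8.71 and 8.87 from 0 to 9 h, 8.47 and 8.65 from 12 to 21 h, 8.45 and 8.56 from 24 to 33 h, and 8.64 and 8.78 from 36 to 45 h. The spread over the whole course was 1.33-fold, and a straight line gave −0.11 ± 0.10.

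Of the 8 genes, 3 (GBP2, GBP1 and IRF7) passed the threshold, an adjusted p under 0.05, of a spline of time in limma, as did 41.9% of all tested probes. In the straight-line fit, at the same threshold, 1 gene, GBP2, passed as rising, as did 12.9% of all tested probes, and 0 passed as falling, against 11.5%. The genes were chosen on these contrasts, and the counts carry no further meaning. All 8 genes had a tested probe and 6 were detected on all 16 arrays. Ordered by median signal, the genes ran from IRF3 (9.66), IRF1 (9.55), STAT3 (8.64) and IRF7 (8.26) to IRF2 and GBP1 (both 8.07) and GBP3 (7.94), with GBP2 (10.05) above them all, but these are levels of different probes, which cannot be ranked against each other as amounts of RNA.

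The other STAT genes included 2 that rose clearly. STAT2, a part of the type I interferon complex, was at 9.72 at 0 h, at 9.80 to 10.38 from 12 to 21 h, at 10.26 to 10.45 from 24 to 33 h and at 10.73 to 10.90 from 36 to 45 h. Its change over 45 h was 1.07 ± 0.14 (adjusted p = 2.96e-05 in limma, over all tested probes), it was above the untreated array on all 15 treated arrays, and the last array was 2.27-fold the first. STAT6, which carries the signals of interleukin-4 and interleukin-13, rose by 0.81 ± 0.14 (adjusted p = 0.000369 in limma) from 8.66 at 0 h to 9.60 to 9.89 from 36 to 45 h, also above the untreated array at all 15 times. Both climbed inside each set of arrays, STAT2 by 0.57 ± 0.22 up to 21 h and 0.63 ± 0.15 from 24 h, STAT6 by 0.53 ± 0.22 and 0.31 ± 0.14.

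STAT5B rose by 0.24 ± 0.07 (adjusted p = 0.0213 in limma), with a change of 0.25 ± 0.10 up to 21 h and of −0.01 ± 0.08 from 24 h, and with median scaling on the probes detected on all arrays its change of 0.07 did not pass. STAT4, a STAT of lymphoid cells, fell by 0.35 ± 0.05 (adjusted p = 8.55e-05 in limma) but was dim, at 8.11 to 8.28 from 0 to 9 h and at no more than 7.99 afterwards, with detection on 6 arrays, the last at 21 h. STAT5A lay between 7.95 and 8.09 and changed by 0.04 ± 0.03 (adjusted p = 0.268 in limma).

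The other IRF genes described here were dim or changed little. IRF9, the DNA-binding part of the type I interferon complex, lay between 8.35 and 8.74, with a change of 0.11 ± 0.10 (adjusted p = 0.48 in limma). IRF5 was detected on 4 arrays and IRF8 on 2, at no more than 8.04, and IRF4 on none.

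**Figure D2:**
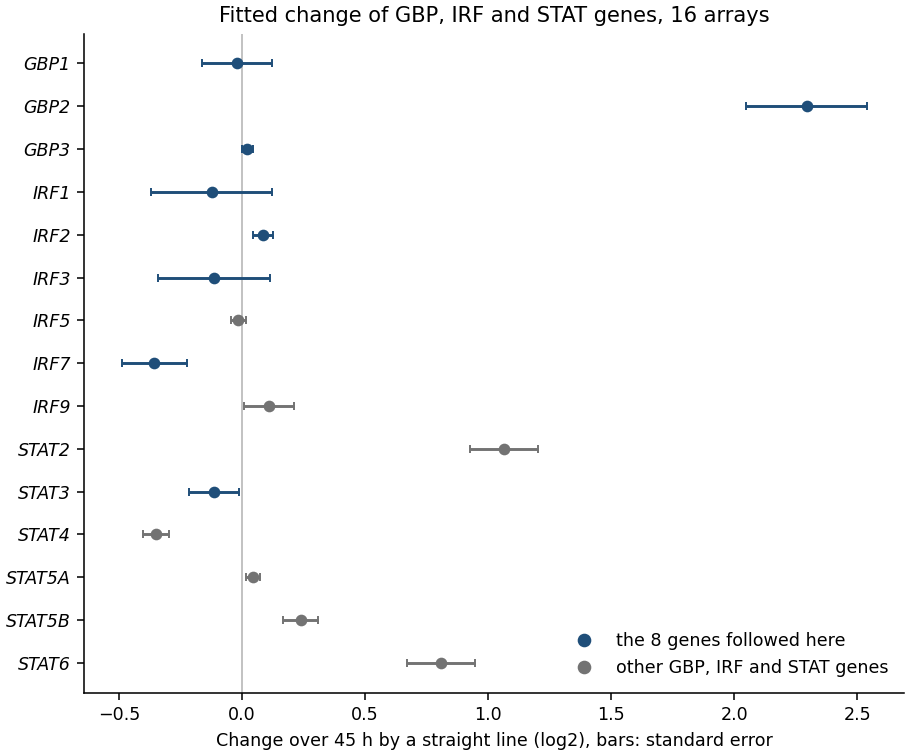
Change over 45 h of 15 tested GBP, IRF and STAT genes by a straight line through 16 arrays, on the log2 scale, with the standard error as bars. GBP2 stands apart at 2.29, STAT2 and STAT6 follow at 1.07 and 0.81, and of those plotted IRF7 and STAT4 lie lowest at −0.36 and −0.35.

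Likeness to GBP2 was then ranked over genes of the whole array. Likeness was measured by Pearson's r with GBP2 across the 16 arrays, over 2089 other genes that were detected on all arrays and spanned at least 1 on the log2 scale. These r values describe points in order of time on shared arrays, any 2 steady climbers reach a high r, and GBP2 itself had an r of 0.92 with the hours. The 10 highest were CHPT1 (r = 0.97), which makes the membrane lipid phosphatidylcholine, CAMLG (0.97), which helps to insert proteins into the endoplasmic reticulum membrane, ZNF277 (0.96), a zinc finger protein, NOA1 (0.96), a mitochondrial GTPase, and CORO1B (0.96), an actin regulator. They were followed by LEMD1 (0.96), RPUSD4 (0.95), a mitochondrial RNA-modifying enzyme, ELP2 (0.95), a subunit of Elongator listed in the table under its older symbol STATIP1, ZNF581 (0.95) and TMEM59 (0.95), a Golgi membrane protein. All 10 rose in the straight-line fit, which their choice by r with a climbing gene makes likely, and 0 of them is on the interferon, JAK-STAT or target lists used here. These lists and the GBP, IRF and STAT families hold only 147 of the 11546 other tested genes, so the 0 carries no meaning. Over all 11546 other tested genes the median r was −0.00169 and the highest 5% began at 0.784.

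The changes of these genes were mostly smaller than that of GBP2. LEMD1 alone exceeded it, with a change of 3.06 ± 0.32 over 45 h and a 45 h level 10.4-fold that at 0 h. CHPT1, ZNF277 and ZNF581 ended 4.25-fold, 4.55-fold and 3.85-fold above their untreated level, and the other 6 changed by 0.83 to 1.37. The order of likeness was not stable. Of the 10 genes, 3 to 5 stayed among the 10 under another background correction or scaling, 3 when the arrays up to 21 h were used alone and 0 with the later arrays alone, although each of the 10 kept an r of 0.70 or more within each set.

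The genes that ran most against GBP2 were ACAT2 (r = −0.97), a thiolase of the early sterol pathway, HBA1 (−0.95), listed as alpha globin, a gene with a near-identical copy, SLC35B1 (−0.95), which exchanges ATP across the endoplasmic reticulum membrane, INO80C (−0.94), of a chromatin remodelling complex, and EBP (−0.94), a sterol isomerase of cholesterol synthesis. ACAT2, at 14.06 untreated and 11.87 on the last array, fell 4.54-fold, and EBP, at 13.73 and 12.13, fell 3.02-fold. Among the 2089 genes, 59 had an r of 0.9 or more with GBP2 and 39 one of −0.9 or less.

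Likeness by step singled out other genes. Here the 15 differences between successive arrays were used, which takes a steady climb away but keeps an uneven one that genes share. The highest r with GBP2 then belonged to DYNLT3 (0.74), a dynein light chain, FOXO4 (0.70), a forkhead factor held back by AKT, PBDC1 (0.68), S100A14 (0.68), a calcium-binding protein of epithelia, and SPEG (0.68). No gene was on both lists, and of the 10 most alike by level 3 were among the 100 highest by step. FOXO4 and SPEG also climbed over the course, by 1.07 ± 0.24 and 0.85 ± 0.18, with an r by level of 0.86 and 0.89, while DYNLT3 and PBDC1 had their highest normalized signal at 9 h and were 1.31-fold and 1.13-fold their untreated level at 45 h. The 9 h array is dim, and the deposited intensity of all 5 genes was lower there than at 6 h (1344 against 1665 for DYNLT3, 1637 against 2242 for PBDC1) and higher at 24 h (1954 and 2366), so the rise into 9 h appears only after normalization.

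**Figure D3:**
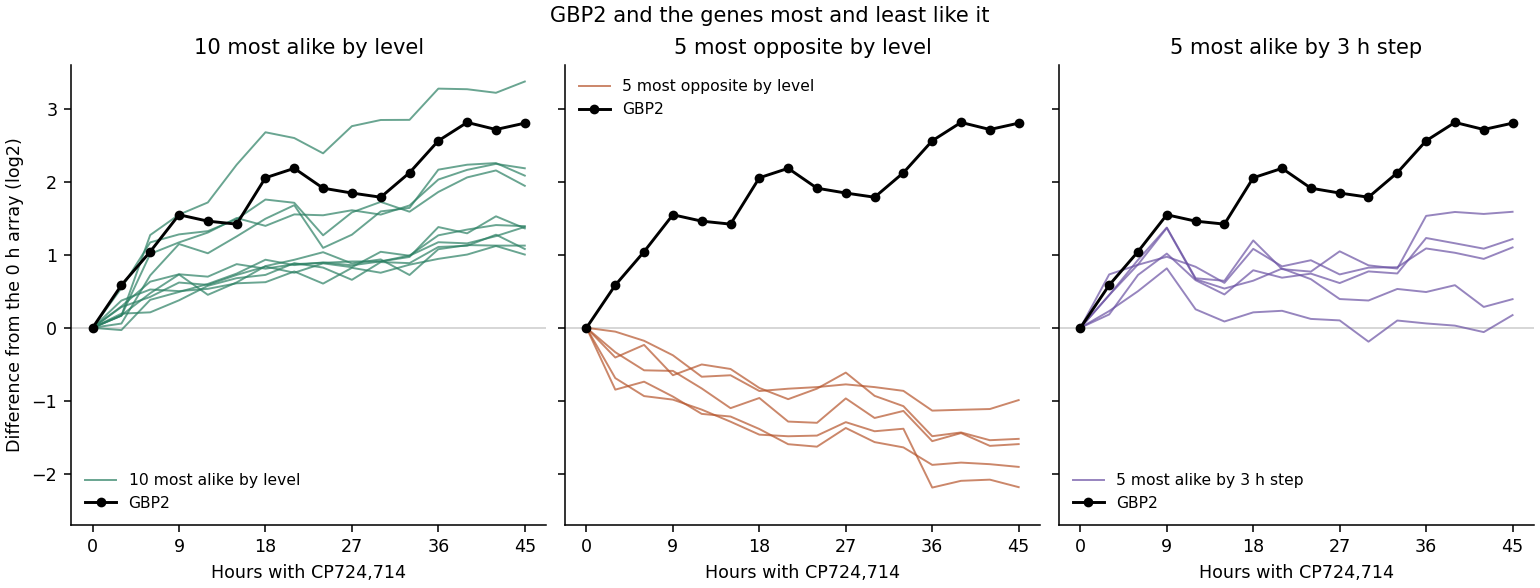
Difference from the 0 h array, on the log2 scale, against hours, for GBP2 (black) and the 10 genes most like it by level (left), the 5 most opposite (middle) and the 5 most alike by 3 h step (right), 1 array per time. The left-hand genes climb with GBP2 and end 1.00 to 3.38 above 0 h, the opposite genes end between −0.99 and −2.18, and the right-hand genes share the rise to 9 h, of which the last step, onto a dim array, is not seen in the deposited intensities.

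Within the GBP, IRF and STAT genes the relation to GBP2 differed between the sets of arrays. Across all 16 arrays r with GBP2 was 0.90 for STAT6, 0.89 for STAT2 and 0.80 for STAT5B, against −0.04 for GBP1, 0.23 for GBP3, −0.31 for IRF1, 0.41 for IRF2, 0.11 for IRF3, −0.53 for IRF7 and −0.32 for STAT3. From 24 to 45 h alone, 8 arrays, r was 0.98 for IRF7, 0.94 for GBP1, 0.86 for IRF1, 0.87 for STAT2, 0.86 for IRF9 and 0.78 for STAT3. From 0 to 21 h alone it was −0.62 for IRF7, −0.44 for GBP1, −0.60 for IRF1 and −0.62 for STAT3, but 0.78 for STAT2. So r with GBP2 was negative in the first 21 h and positive afterwards for GBP1, IRF1, STAT3 and the brighter probe of IRF7. The dimmer IRF7 probe differed, with an r of 0.03 up to 21 h and −0.27 from 24 h. Over all other tested genes the 5th and 95th percentiles of r were −0.826 and 0.814 up to 21 h and −0.906 and 0.902 from 24 h. All r values given here for the first 21 h lay between these limits. From 24 h only those of IRF7 (brighter probe) and GBP1 lay beyond them. Over all other tested genes, 5.18% reached an r of 0.9 or more on the later arrays and 1.35% on the earlier ones, and the difference between the sets was not tested.

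**Figure D4:**
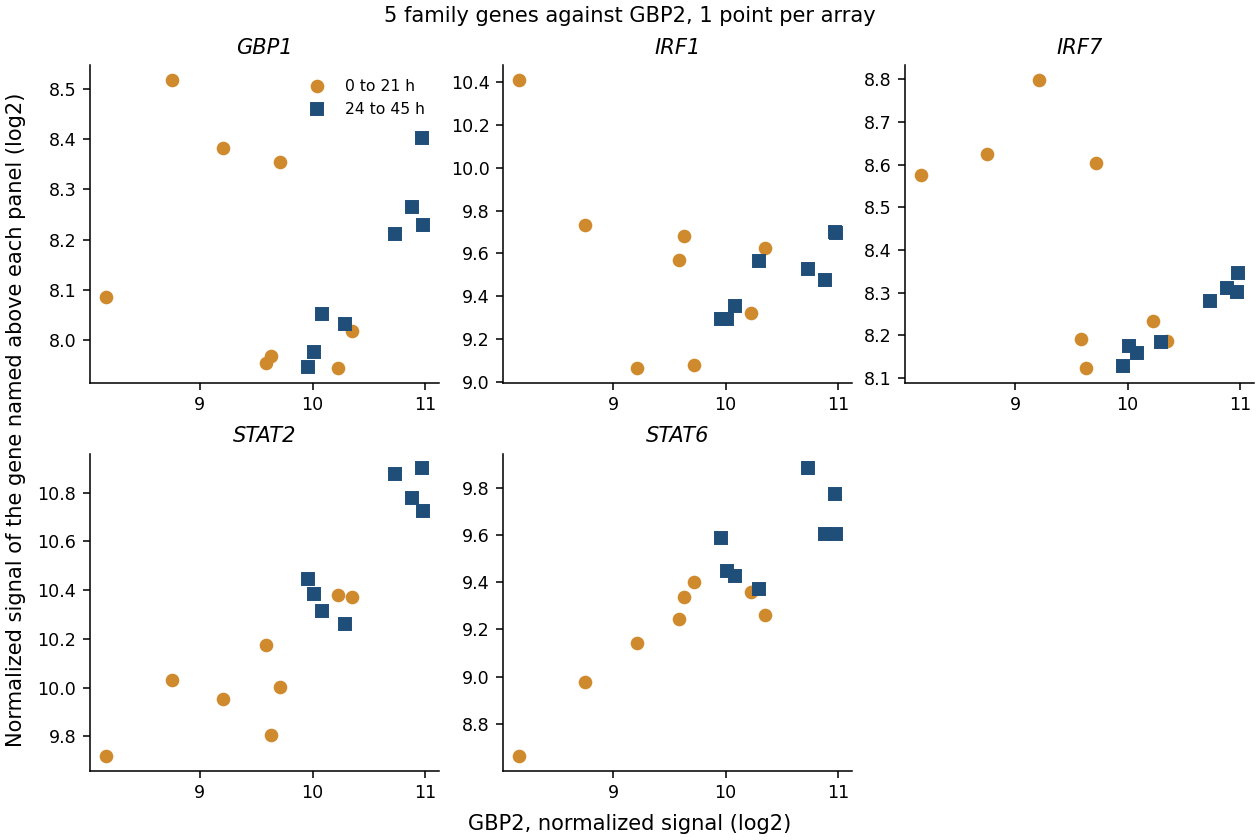
Normalized log2 signal of 5 family genes against that of GBP2, 1 point per array, with arrays up to 21 h as circles and later ones as squares. GBP1, IRF1 and IRF7 (its brighter probe) slope down over the circles and up over the squares, and STAT2 and STAT6 slope up over both.

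The ligands and receptors of the pathway were looked at next. Of 15 ligand genes, 9 were detected on no array, among them IFNG, IFNB1, IFNA1 and IFNA2, and 3 were tested, of which none passed the straight-line test. Over the whole array 12321 of 20589 probes were tested. LIF, an interleukin-6 family ligand, was highest at 0 h with 8.51 and stood at 8.06 at 45 h, with a linear change of −0.20 ± 0.08 (adjusted p = 0.0729 in limma), which was −0.30 with median scaling on the tested probes and −0.48 with that on the probes detected on all arrays, and passed with both. Of 10 tested receptor genes 2 rose, against 12.9% of all tested probes, and 8 passed the spline, against 41.9%. The rises were IL13RA1, a receptor chain for interleukin-13, by 0.58 ± 0.13 (adjusted p = 0.0024 in limma) and IL11RA, the interleukin-11 receptor, by 0.30 ± 0.07 (adjusted p = 0.00251 in limma). IL11RA had an r with GBP2 of 0.81 over all arrays and 0.88 from 24 h, but its change was 0.07 and did not pass with median scaling on the probes detected on all arrays. The interferon gamma receptor chains IFNGR1 and IFNGR2 changed by 0.48 ± 0.23 and −0.04 ± 0.28, and IFNAR1 and IFNAR2 by 0.18 ± 0.10 and 0.07 ± 0.15, without passing. Under median scaling IFNGR1 and IFNAR1 gave 0.86 and 0.40 and passed, and IFNGR2 turned to 0.30 without passing. IFNGR1 also passed with median scaling on the tested probes (0.70) but not with that on the probes detected on all arrays (0.52), and IFNAR1 passed with neither.

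Few of the kinases and inhibitors passed. JAK1, JAK2 and TYK2 changed by 0.01 ± 0.05, −0.02 ± 0.03 and −0.05 ± 0.14, and JAK3 was not detected. Of 15 tested inhibitors SOCS2, a feedback inhibitor of cytokine receptors, fell by 0.36 ± 0.08 (adjusted p = 0.00252 in limma) and PTPN6, a phosphatase, rose by 0.09 ± 0.03 (adjusted p = 0.0378 in limma), a direction that turned with median scaling on the tested probes (−0.02). The inhibitors with the largest fitted changes were PIAS4 (−0.59 ± 0.24), a SUMO ligase, and the phosphatases PTPN1 (−0.39 ± 0.14) and PTPN11 (−0.35 ± 0.14), with SOCS1 at −0.38 ± 0.14, none of which passed. PTPN1 ended 1.62-fold below its untreated level and had an r of −0.78 with GBP2, and under median scaling PTPN1 and PTPN11 turned to 0.08 and 0.06. SOCS1 passed with median scaling on the tested probes (−0.39) and on the probes detected on all arrays (−0.57), and so did SOCS3 (−0.17 and −0.35), which had changed by −0.01 ± 0.02, and JAK2 (−0.17 and −0.36). Of the 31 tested genes of the pathway, 3 rose and 1 fell, against 12.9% rising and 11.5% falling over all tested probes, with a median change of −0.02 against −0.00219 over all tested probes. Without the array at 9 h the counts were 3 and 4, with median scaling 6 and 0, with that on the tested probes 3 and 9, and with that on the probes detected on all arrays 1 and 11. Among all 12321 tested probes 1632 rose and 1507 fell without the array at 9 h. Under these scalings, in the same order, their median change was 0.06, −0.10 and −0.28, and 4751 of them fell under the last.

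Among the type I interferon genes rises and falls were about equal in number. Of 46 genes listed 44 had a probe, 33 were tested, 6 rose and 5 fell, and the median change was 0.01. Over all tested probes 12.9% rose and 11.5% fell. The rises were led by IFITM2 (0.69 ± 0.23, adjusted p = 0.0352 in limma) and IFITM3 (0.60 ± 0.20, adjusted p = 0.0317), membrane proteins that block virus entry, and by UBE2L6 (0.20 ± 0.03, adjusted p = 5.22e-05), the ISG15-conjugating enzyme, which was detected on 4 arrays. The falls were led by ISG20 (−1.35 ± 0.23, adjusted p = 0.000318), an antiviral exonuclease, IFI6 (−0.77 ± 0.19, adjusted p = 0.00644) and TRIM22 (−0.44 ± 0.13, adjusted p = 0.017). IFI27, IFIT1, MX2 and RSAD2, which interferon induces strongly in many cells, were detected on no array, and ISG15 fell by 0.38 ± 0.08 (adjusted p = 0.00272 in limma).

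These type I directions depended on the processing. With the array set as a block 3 genes rose and 0 fell, and with median scaling on the probes detected on all arrays 0 rose and 16 fell. Among all 12321 tested probes 417 rose and 343 fell with the block. With that scaling 4751 of them fell, and their median change was −0.28. Under that scaling UBE2L6 turned to −0.11, while IFITM2 and IFITM3 kept 0.62 and 0.59 without passing.

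The list of interferon gamma and IRF1 targets held rises and falls as well. Of 43 genes, 31 were tested, 8 rose and 5 fell, against 12.9% and 11.5% of all tested probes, and the median change was 0.03. The split was 11 and 2 with median scaling, 10 and 9 with that on the tested probes, and 8 and 13 with that on the probes detected on all arrays. The median change of all 12321 tested probes was 0.06, −0.10 and −0.28 under these scalings, and 4751 probes fell under the last. Among the rises were VAMP5 (1.03 ± 0.16, adjusted p = 0.000179 in limma), a vesicle fusion protein, and TNFSF10 (0.86 ± 0.12, adjusted p = 6.27e-05), the death ligand TRAIL. The falls were led by WARS1 (−1.21 ± 0.17, adjusted p = 5.02e-05), tryptophanyl-tRNA synthetase, TAP1 (−0.66 ± 0.18, adjusted p = 0.0113), a peptide transporter, and PSMB10 (−0.42 ± 0.12, adjusted p = 0.0176), an immunoproteasome subunit. By role, 5 of 16 tested antigen processing genes rose and 2 fell, and 3 of 15 other targets rose and 3 fell. CIITA, CXCL9, CXCL11 and IDO1, which interferon gamma induces strongly, were detected on no array.

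The rise of VAMP5 and TNFSF10 and the fall of WARS1 passed under 3 forms of median scaling as well, and the fall of TAP1 under 1 of them. With the array set as a block 4 genes of the list rose and 2 fell. With the arrays up to 21 h alone the counts were 2 and 3, and with the later arrays alone 8 and 5. Over all 12321 tested probes the counts were 417 and 343 with the block, 714 and 677 up to 21 h, and 1480 and 1583 with the later arrays.

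Of all list genes CASP4, an inflammatory caspase on the interferon gamma list, was most like GBP2. Its r with GBP2 was 0.94 over all arrays, 0.90 up to 21 h and 0.94 from 24 h. The level of CASP4 went from 10.57 at 0 h to 11.65 at 45 h, above the untreated array at all 15 times, with a change of 0.72 ± 0.14. CASP4 is singled out for its r with GBP2, which itself climbed, so its rise is not a separate result. Of 147 list genes other than GBP2, 2 (CASP4 and STAT6) reached an r of 0.9 and 9 one of 0.8. Over all 11546 other tested genes the 95th percentile of r was 0.784.

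The STAT3 targets held equal numbers of rises and falls with quantile normalization. Of 20 tested genes 4 rose and 4 fell, against 12.9% and 11.5% of all tested probes, with a median change of −0.03. BCL6, a transcriptional repressor, rose by 1.38 ± 0.38 (adjusted p = 0.0135 in limma), CEBPD, an acute-phase factor, by 0.71 ± 0.23 (adjusted p = 0.0281) and TIMP1, a protease inhibitor, by 0.57 ± 0.17 (adjusted p = 0.0215). IER3 (−1.15 ± 0.19, adjusted p = 0.000222), FOS (−0.89 ± 0.29, adjusted p = 0.0304) and LCN2 (−0.62 ± 0.12, adjusted p = 0.00109) led the falls. BCL6 had already gone from 10.06 at 0 h to 11.88 within 9 h, and without the untreated array the list had 1 rise and 3 falls. With the array set as a block 1 gene rose and 0 fell, and with median scaling on the probes detected on all arrays 4 rose and 9 fell. Among all 12321 tested probes 1358 rose and 1210 fell without the untreated array, 417 rose and 343 fell with the block, and 4751 fell with that scaling.

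The targets of NF-kB, a factor of inflammatory signaling, moved only downward in the straight-line fit on quantile-normalized values. Of 19 tested genes 0 rose and 8 fell, against 12.9% and 11.5% of all tested probes, with a median change of −0.12 and a median r with GBP2 of −0.52. BIRC3, an apoptosis inhibitor, fell by 1.17 ± 0.28 (adjusted p = 0.00447 in limma), TNIP1 by 0.92 ± 0.24 (adjusted p = 0.00957) and TNFAIP3, a feedback inhibitor, by 0.92 ± 0.29 (adjusted p = 0.0251). BIRC3 was at 10.58 at 0 h and 8.77 at 45 h, and the deposited detection p called it on 6 arrays in spite of these signals. Without the untreated array 1 gene rose and 4 fell, with the array set as a block 0 rose and 2 fell, and from 24 to 45 h alone 4 rose and 2 fell. In the same order 1358, 417 and 1480 of the 12321 tested probes rose, and 1210, 343 and 1583 fell.

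**Figure D5:**
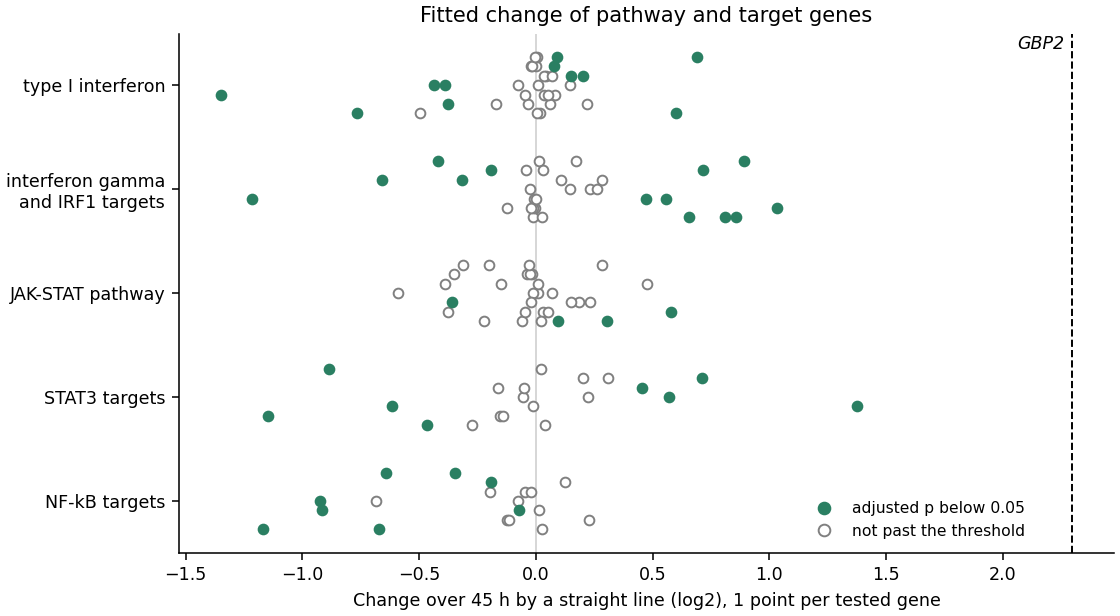
Change over 45 h of each tested gene of 5 lists by a straight line through 16 arrays, on the log2 scale, with filled points for an adjusted p under 0.05. The dashed line marks GBP2 at 2.29, and the highest point of any list is BCL6 at 1.38.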

How the data were processed

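Human Ref-8 v2 beadchips were hybridised with RNA of 16 cultures of MCF10HER2 cells. The authors deposited an intensity for each probe and array, before normalization between arrays, and beside it a detection p-value against the negative control probes of that array. The function neqc of limma 3.58.1, run in R 4.3.3, removed background (controls inferred from the detection p-value, offset 16), quantile-normalized and took log2. Its background step with the offset shrinks the folds of dim probes. Without background correction the change over 45 h was 0.25 for IRF2, 0.10 for GBP3 and −0.55 for IRF7, against 0.09, 0.02 and −0.36. The brighter GBP2, IRF1 and IRF3 changed less without it, by 2.06, −0.09 and −0.09. Tests covered the 12321 probes whose detection p was under 0.05 on at least 3 arrays. Each was fitted with a natural spline (4 degrees of freedom) and with a straight line, whose slope is printed as the log2 change over 45 h and its SE, and p-values were adjusted by Benjamini-Hochberg over all tested probes. The fits were run on simulated data with straight-line changes and independent scatter. That simulation held no dim arrays and no shift between the sets of arrays, so it does not test the p-values against these. The p-values measure scatter about a curve between single arrays. The sets of arrays up to 21 h and from 24 h were told apart by background, and no label names a chip. The 8 genes and all lists were chosen with earlier results of these data known. Genes named are the 8, other GBP, IRF and STAT genes, the 10 genes with the highest and 5 with the lowest r with GBP2, the 5 with the highest r of steps, and the 3 largest rises and falls past the threshold of each list, except that a few genes are not reported here. IFNG and other genes named for their role, for being undetected or for their r were added after their values were seen. Per gene the tested probe of the highest mean signal was used, and symbols were updated through RefSeq (GRCh38.p14). Alternatives covered background correction, scaling, the detection filter, array sets, array weights, single arrays and other probes.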

Additional observations from a re-analysis of the deposited data

How the results depend on the processing

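The change of GBP2 over 45 h stayed positive under all 29 alternatives. It was 2.06 without background correction and with array weights, 2.63 with median scaling, 2.79 with no normalization between arrays, 3.38 with the array set as a block and 4.23 from the arrays up to 21 h alone, expressed per 45 h. Leaving out 1 array at a time gave 2.01 to 2.39. Of the 10 genes most like GBP2, 3 stayed among the 10 with normexp on the signals alone, 5 without background correction, 3 with median scaling, 4 with no normalization, 4 with either form of median scaling on chosen probes, 3 with the arrays up to 21 h, 0 with the later arrays, and 6 to 10 without single arrays.

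Rising probes numbered 2409 with median scaling, 417 with the block and 714 up to 21 h, against 1584. Falling probes numbered 585 with median scaling, 95 with no normalization, 343 with the block, 677 up to 21 h, 2960 with median scaling on the tested probes and 4751 with median scaling on the probes detected on all arrays, against 1420, and with no normalization 8930 probes depended on time. Rises were 52.7% of the linear calls with quantile normalization, 80.5% with median scaling, 35.6% with median scaling on the tested probes and 18.9% with that on the probes detected on all arrays, and the median change of all tested probes was −0.00219, 0.06, −0.10 and −0.28. Median scaling on chosen probes and the fit without the 9 h and 18 h arrays were added after seeing the data.

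The number of type I interferon genes past the linear threshold, 11, became 2 with no normalization, 7 with probes detected on all arrays, 3 with the block and 3 up to 21 h. The 13 interferon gamma and IRF1 targets became 6 with the block, 5 up to 21 h and 21 with median scaling on the probes detected on all arrays. The 4 JAK-STAT genes became 2 with no normalization and with the block, 10 from 24 h, 7 with array weights, 8 without both dim arrays, 12 with median scaling on either set of chosen probes, and 3 to 7 without single arrays. The 8 STAT3 targets became 5 with no normalization, 1 with the block, 2 up to 21 h, 13 with median scaling on the probes detected on all arrays, and 4 to 8 without single arrays. The 8 NF-kB targets became 5 with median scaling and with probes detected on all arrays, 0 with no normalization, 2 with the block, 4 up to 21 h, 3 with array weights, and 5 to 8 without single arrays. The cause was not tested in any of these cases.

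The changes of the other 7 genes stayed within 1 SD of their scatter in 158 of 202 values and moved further in 44. These values include the fits without single arrays. Under median scaling GBP1, IRF1, IRF3 and STAT3 turned to 0.13 ± 0.11, 0.26 ± 0.31, 0.32 ± 0.23 and 0.15 ± 0.13, while GBP3, IRF2 and IRF7 kept their sign. IRF1 was at 0.23 ± 0.19 without the 0 h array, and IRF7 at −0.003 ± 0.24 with no normalization between arrays. No paired analysis was possible because a single array stands for each time. GBP3, GBP4 to GBP7 and many interferon genes lay at background, where a change of RNA would not show.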
